A study of Mus musculus with 4 samples.

Results

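Transcripts of 8 genes by which lymphatic vessels are recognized were followed through every cell class of the regenerating mouse digit. The genes were Prox1 (ENSMUSG00000010175), Lyve1 (ENSMUSG00000030787), Pdpn (ENSMUSG00000028583), Mmrn1 (ENSMUSG00000054641), Reln (ENSMUSG00000042453), Nts (ENSMUSG00000019890), Foxc2 (ENSMUSG00000046714) and Pkhd1l1 (ENSMUSG00000038725). They were picked by symbol as known lymphatic genes, with earlier results of these data known. All 8 were found among the 33696 genes of the count tables. The data were 4 droplet-based single-cell libraries made with a 3' kit of 10x Genomics. Transcripts were counted by their unique molecular identifiers (UMIs). Each library is labelled P3 digit, after the terminal phalanx that regrows after amputation. The study's methods place the injury at the tip of P3. To collect the cells, they describe hindlimb digits cut off at P2, the phalanx behind it. The methods describe the injury for fewer digits than were collected, so uninjured digits may be among them, which the labels do not state. Each held digits of 10 female mice aged 6 to 8 weeks, pooled, of strain C57BL/6 in the labels and C57BL/6J in the study's methods. In the first pair, mice ate chow with SAR131675, an inhibitor of the lymphatic growth factor receptor VEGFR3, at 30 mg per kg of chow, or a matched control diet. The labels give 8 days of diet, begun before amputation. In the second pair, lymph node removal (LNR) was set against a control called sham. The study's text describes the operation as unilateral with the opposite side as sham, so both libraries may hold digits of the same mice, which the labels do not state. The labels list both control libraries as having had no treatment. Each library was its own batch (1 to 4), so treatment cannot be told apart from batch, and differences between libraries have no replicate check. The file headers give version 8.0.1 of the counting software Cell Ranger for the first pair and 6.1.2 for the second. Differences between the pairs therefore cannot be told apart from this difference in counting.

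Lymphatic capillaries are blind-ended vessels that take up interstitial fluid and migrating immune cells and pass them to collecting vessels with valves. PROX1 is the transcription factor that sets and keeps lymphatic endothelial fate, and it sustains expression of Flt4, the gene of VEGFR3. Capillary endothelium carries the hyaluronan receptor LYVE1 and secretes the chemokine CCL21, whereas valves and collecting vessels need FOXC2 and hold little LYVE1.

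The 4 libraries held between 168507188 and 585284877 UMIs. The limits of 200 to 5500 genes, at most 30000 UMIs and at most 10% mitochondrial UMIs kept 29076 SAR131675, 24030 control diet, 19827 LNR and 20669 sham cells, with median depths of 11316, 10712, 5725 and 5851 UMIs. The libraries of the first pair shared 210 kept barcodes and those of the second pair 101. Clusters were formed and named without the 8 genes. The naming rule was, however, set after values of the 8 genes had been looked at, so the shares below are not independent of them. Lymphatic endothelial cell-like (LEC-like) cells numbered 226, 210, 185 and 173 in that order of libraries, and held 0.404%, 0.457%, 0.626% and 0.495% of all UMIs. Of the 8 genes on which the LEC name rested (Ccl21a, Flt4, Sema3d, Gpm6a, Fxyd6, Tbx1, Clca3a1 and Stab2), 7 were found in the LEC-like cells, Ccl21a at 11741 to 15290 CPM, which gives UMIs of a gene relative to all UMIs of the same cells. The scavenger receptor gene Stab2 had 0 UMIs there in every library, and a limit of 3 UMIs corresponds to 2.19, 2.47, 3.35 and 4.02 CPM. Intervals here and below are at 95%, exact binomial (Clopper-Pearson) for shares, exact Poisson for CPM, and for log2 ratios exact conditional intervals. All treat UMIs as independent molecules and cover counting error only. Since each condition had 1 library, no p-value was computed.

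The 8 genes differed widely in how much of their UMIs lay in LEC-like cells. Over the 4 libraries together, LEC-like cells held 82.3% of the Mmrn1 UMIs, 81.7% of Nts, 77.9% of Prox1, 56.1% of Reln and 53.6% of Pkhd1l1. They held 22.4% of Foxc2, 18.4% of Lyve1 and 7.50% of Pdpn. Thus 5 of the 8 genes had at least 50% of their UMIs there. Among all genes for which each pair held at least 100 UMIs, 13 of 16006 did so, a percentage of 0.0812. When the 14695 genes with 200 UMIs or more in both pairs were ordered by this share, Mmrn1 was number 2, Nts 3, Prox1 4, Reln 11, Pkhd1l1 12, Foxc2 35, Lyve1 48 and Pdpn 167. The first 10 were Ccl21a, Mmrn1, Nts, Prox1, Sh3gl3, Flt4, Dtx1, Duox2, Klhl4 and Btnl9. The count of 5 held in each of the 10 alternatives, which included leaving out each library, but the shares moved. In single libraries, Reln was below 50% in SAR131675 (48.5%) and Pkhd1l1 in sham (47.8%). With LEC cells defined per barcode by markers the shares were 21.4% for Pdpn, 37.8% for Foxc2, 80.4% for Pkhd1l1 and 98.3% for Mmrn1. Of those barcodes, 4.26% to 9.28% lay in LEC-like clusters. They included 97.3% to 99.1% of the LEC-like cells, so this alternative could hardly lower the shares or the count of 5.

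**Figure D1:**
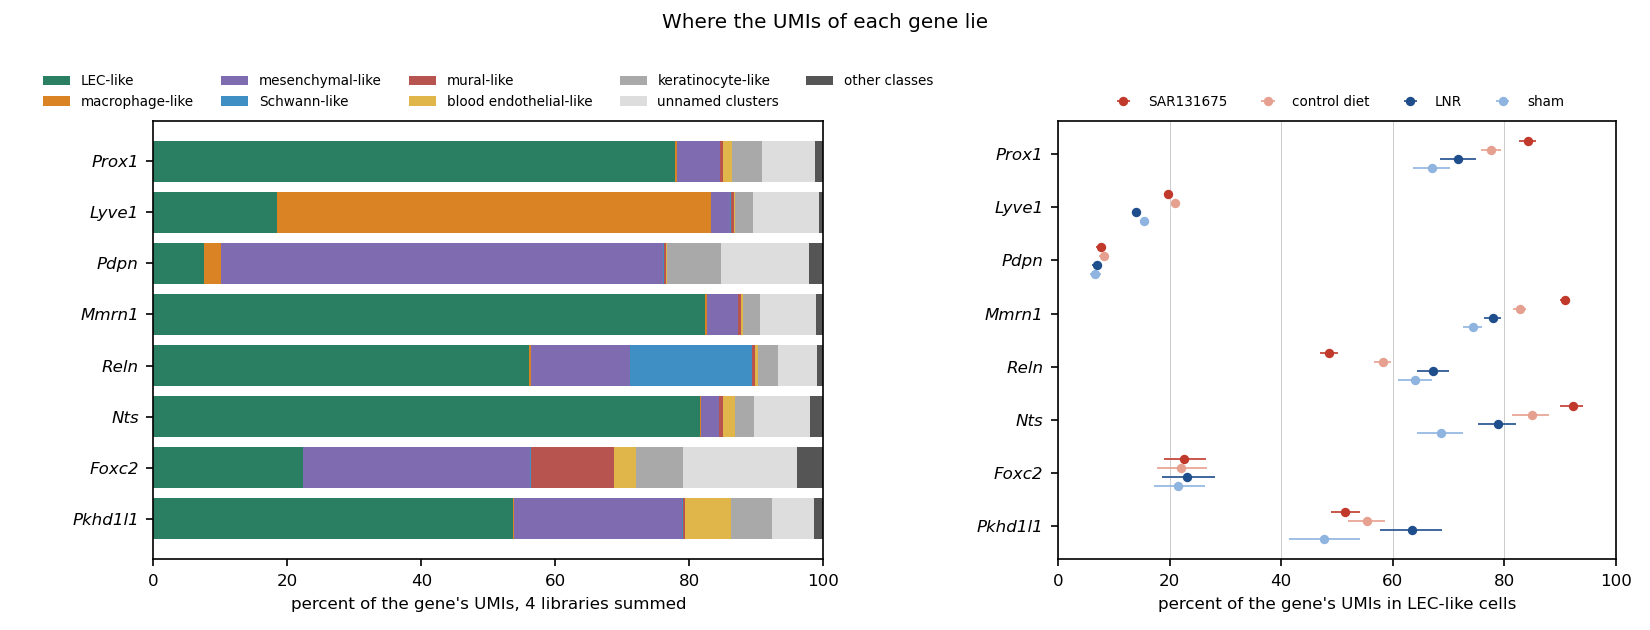
Left, the percent of each gene's UMIs that lay in each cell class, with the 4 libraries summed; right, the percent in LEC-like cells in each library, with exact 95% binomial intervals. The bars of Mmrn1, Nts and Prox1 are mostly LEC-like, that of Lyve1 is mostly macrophage-like (64.8%) and that of Pdpn mostly mesenchymal-like (66.0%).

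Prox1 encodes the homeobox factor of lymphatic fate. Its share in LEC-like cells was 84.2% (82.7 to 85.7) in SAR131675, 77.6% (75.7 to 79.4) in control diet, 71.7% (68.4 to 74.9) in LNR and 67.0% (63.7 to 70.2) in sham. Its level in these cells was 1406, 1298, 624 and 747 CPM, against 1.07, 1.72, 1.55 and 1.83 CPM in all other cells. The first pair thus had the higher level and the higher share in LEC-like cells, and the pairs did not overlap in either. The pairs also differed in depth and in the version of Cell Ranger, and the part of these was not tested. Next in order came neutrophil-like cells, where 4 of 174 sham cells held all 16 Prox1 UMIs of that class (74.0 CPM). The same class held 0 Prox1 UMIs in the other libraries, and in sham it also held 18 Nts and 22 Ccl21a UMIs. Blood endothelial-like cells, at 4.99 to 7.80 CPM of Prox1, stood above mesenchymal-like cells, at 1.92 to 4.60 CPM, and the latter overlapped mural-like cells, at 1.31 to 4.29 CPM. Whether these low values were expression or free RNA of LEC-like cells was not tested.

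Foxc2 encodes a forkhead factor of lymphatic valves that is also active in mesenchyme. It was the least abundant of the 8 genes in UMIs, with 1493 in all kept cells. In LEC-like cells its level was 80.2, 63.3, 85.0 and 95.3 CPM in SAR131675, control diet, LNR and sham. Mural-like cells, the smooth muscle cells and pericytes of vessel walls, followed at 12.1 to 23.4 CPM, and no library of that class reached the LEC-like range. Mesenchymal-like cells were low at 3.34 to 4.26 CPM but numerous, and they held 33.8% of Foxc2 UMIs, against 12.4% in mural-like cells. By cluster, Foxc2 reached 36.2 (28.2 to 45.7) CPM in an unnamed cluster of the first pair led by Cytl1, Col10a1, Ecrg4 and Acan. It was at 24.3 (18.9 to 30.7) CPM in osteoblast-like cells of that pair and at 28.6 (21.6 to 37.3) CPM in the Myh11-led mural-like cluster of the second pair.

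Lyve1 encodes the hyaluronan receptor of lymphatic capillaries and is also known from tissue macrophages. Macrophage-like cells held 64.8% of its UMIs, more than LEC-like cells in every library. Lyve1 was at 2082, 2580, 1796 and 1862 CPM in macrophage-like cells and at 2234, 2769, 1346 and 1661 CPM in LEC-like cells, in the same order of libraries. LEC-like cells were thus higher in the first pair and macrophage-like cells in the second, and the ranges over libraries overlapped. Lyve1 was the exception among the 8 genes, since the other 7 had their highest pooled level in the LEC-like class, among classes of at least 50 cells. Within macrophage-like cells of the first pair, Lyve1 stood at 3259 CPM in the cluster led by Lyve1 and Pf4, 2839 in the cluster led by Vsig4 and 2426 in the cluster led by Pf4 and Mrc1. It was lower, at 1475 and 344 CPM, in the clusters led by Ccl8 (379 cells) and Lyz1 (70 cells). Every other named class was at or below 66.1 CPM of Lyve1, and keratinocyte-like cells were at 1.96 to 2.88 CPM. Without upper limits on genes and UMIs, the LEC-like class had the highest pooled level of all 8 genes.

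Pdpn encodes podoplanin, a mucin-type membrane protein that is also made by fibroblasts and activated macrophages. Its level in LEC-like cells was close in all libraries, at 258, 258, 217 and 216 CPM. Mesenchymal-like cells, the next class, were at 67.8, 73.7, 62.2 and 62.8 CPM, but their number gave them 66.0% of all Pdpn UMIs. Fibroblast-like clusters of the first pair reached 108 CPM where led by Apod and Ebf2 and 101 CPM where led by Igfbp5 and Myoc. The Vsig4-led macrophage-like cluster of the first pair was at 131 (112 to 151) CPM of Pdpn, above the 18.5 to 27.2 CPM of the macrophage-like class. In the second pair, an unnamed cluster of 244 cells led by Igkc, Plac8, Ighm and Jchain stood at 221 (195 to 249) CPM of Pdpn, level with the 216 (195 to 240) CPM of the LEC-like cells of that pair. There 20.1% of its cells held a Pdpn UMI, against 51.4% of LEC-like cells.

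**Figure D2:**
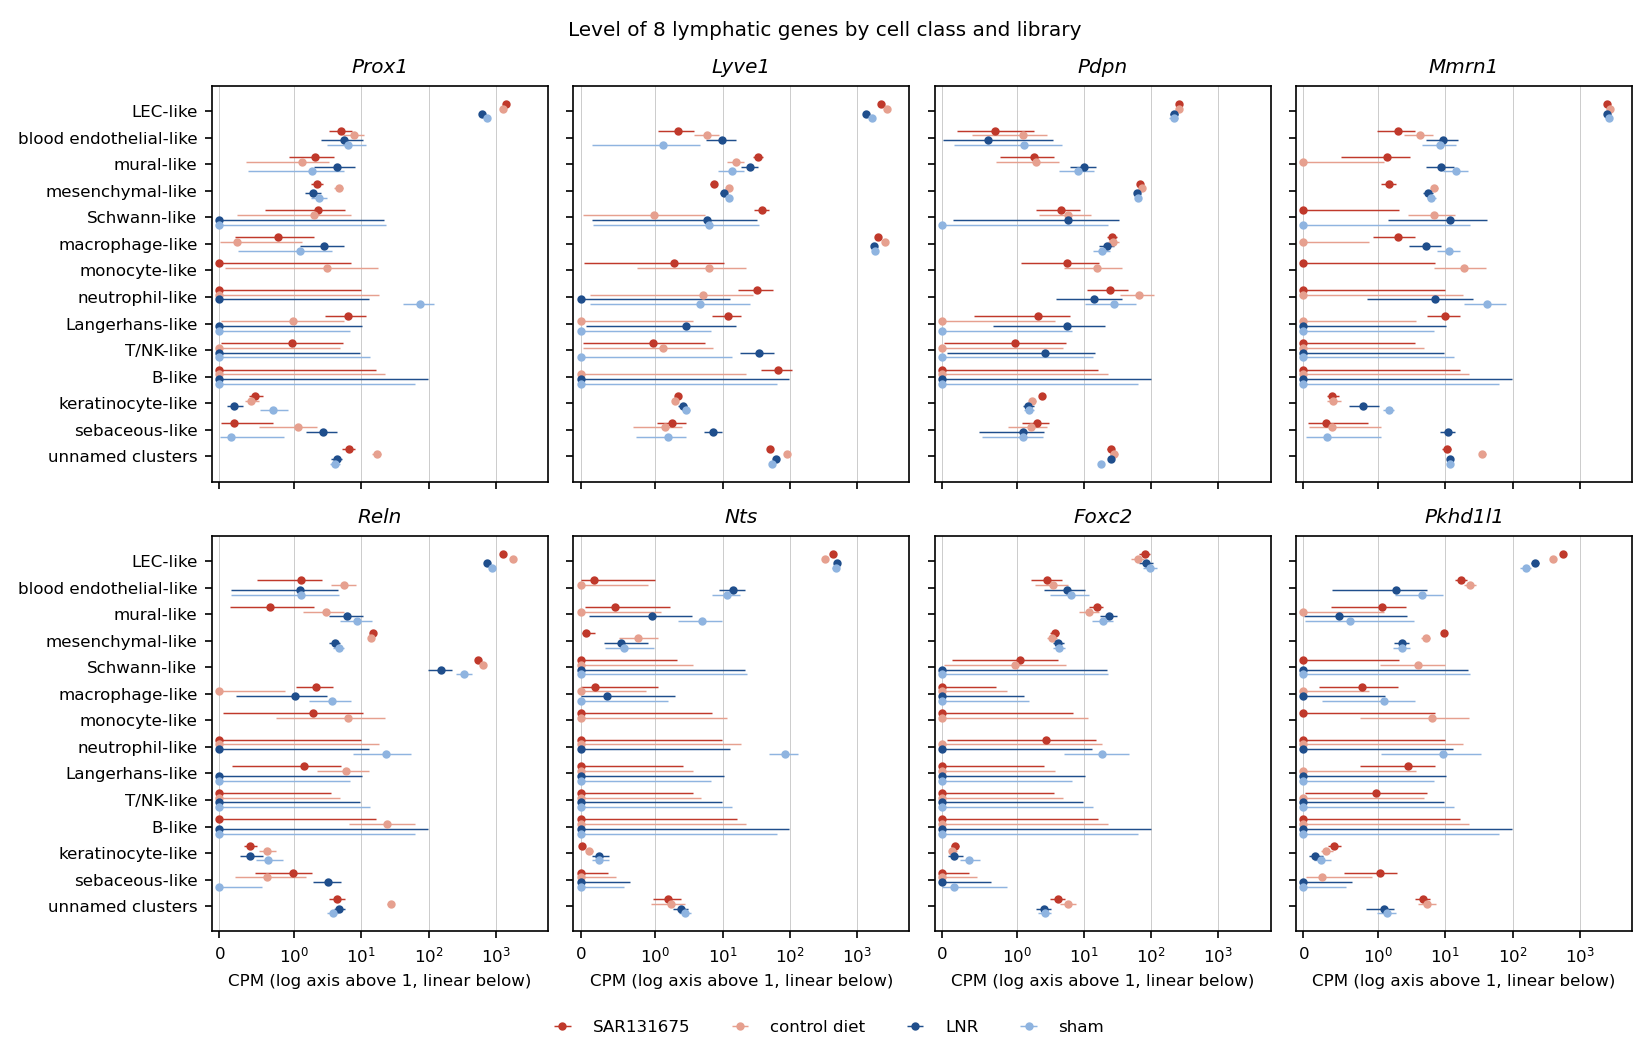
CPM of each gene (log axis above 1, linear below) in each cell class, with 1 point per library and exact 95% Poisson intervals. LEC-like cells are the highest class for all genes but Lyve1, whose macrophage-like points lie between 1796 and 2580 CPM, within the range of LEC-like cells. Reln has a second high class in Schwann-like cells and Pdpn in mesenchymal-like cells.

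The 3 secreted proteins differed in how far their transcripts were confined. Mmrn1 encodes multimerin 1, a glycoprotein of endothelium and platelets. Its share in LEC-like cells was 90.9%, 82.7%, 77.9% and 74.3% in SAR131675, control diet, LNR and sham, and its level was 2512, 2815, 2506 and 2729 CPM, against 1.02 to 4.68 CPM outside. The only other named class above 50 CPM of Mmrn1 was a platelet-like cluster of 9 cells in the first pair, with 9 Mmrn1 UMIs and 710.2 (325 to 1348) CPM. Of the Mmrn1 UMIs outside LEC-like cells, 76.9% to 91.5% lay in cells that also held UMIs of at least 2 other genes of LEC-like cells. The same range was 33.8% to 68.6% for Prox1, 3.27% to 6.16% for Lyve1 and 0.888% to 3.14% for Pdpn. Unnamed clusters that were led by Ccl21a and Mmrn1 but scored highest for basal keratinocyte markers, of 156 cells in the first pair and 39 in the second, held 5.25% and 9.57% of the Mmrn1 UMIs of their pair. Their median depths were 10129 and 8886 UMIs, against 4788 and 6372 UMIs in the LEC-like clusters of the first pair and 2606.5 in that of the second. With cells called doublets removed, the LEC-like share over the 4 libraries was 90.6% for Mmrn1, 89.8% for Nts and 83.9% for Prox1.

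Reln encodes reelin, an extracellular matrix protein that lymphatic endothelium secretes and that is known from the nervous system. Its share in LEC-like cells was 48.5%, 58.2%, 67.3% and 64.02%, and its level there was 1279, 1811, 753 and 867 CPM. Schwann-like cells were the next class, at 550.1, 638, 153 and 336 CPM, and their range did not reach that of LEC-like cells. They held 18.2% of Reln UMIs. In the first pair, the Schwann-like cluster led by Cadm2 and Csmd1 stood at 256 (231 to 283) CPM of Reln. This was below the 550.1 and 638 CPM of the whole class, so the other Schwann-like cells of that pair stood higher. A fibroblast-like cluster of 189 cells led by Apod, Ebf2, Sfrp5 and Itih5 was at 558 (520.5 to 597) CPM of Reln and held 11.3% of the Reln UMIs of that pair. Over both libraries of the second pair, Schwann-like cells were at 242 (192 to 301) CPM.

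Nts encodes the precursor of neurotensin, a secreted peptide. LEC-like cells held 92.2%, 84.9%, 78.9% and 68.6% of its UMIs, at 440.5, 333, 509 and 478 CPM, against 0.151, 0.272, 0.859 and 1.09 CPM in all other cells. Its fold over other cells, 439 to 2921, spanned the widest range of the 8 genes. An Nts UMI was found in 37.6%, 24.3%, 35.1% and 37.6% of LEC-like cells. Pdpn, at a lower level in the same cells, was found in 66.4%, 57.1%, 53.5% and 49.1% of them. The Nts UMIs were thus gathered in fewer cells, although at these depths a cell without a UMI may still hold the transcript. Blood endothelial-like cells held 0 to 14.1 CPM of Nts, where 4 LNR cells held 23 UMIs and 3 sham cells 18, against 1 UMI and 0 in the first pair.

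Pkhd1l1 encodes fibrocystin-L, a large membrane protein. Its level in LEC-like cells was 559, 406, 216 and 157 CPM, and its share there was 51.5%, 55.4%, 63.5% and 47.8%. Mesenchymal-like cells held 25.1% of its UMIs at 2.25 to 9.50 CPM, and these came largely from fibroblast-like clusters led by elastic matrix genes. The cluster of the first pair led by Col8a1, Rbp4, Eln and Chad stood at 219.7 (202 to 239) CPM of Pkhd1l1, with a UMI in 66.5% of its 221 cells, and held 23.1% of the pair's UMIs. Its counterpart in the second pair, led by Rbp4, Eln and Col8a1, was at 42.8 (34.0 to 53.2) CPM. Blood endothelial-like cells held 6.93% of Pkhd1l1 UMIs, at 1.85 to 23.4 CPM, a range that overlapped that of mesenchymal-like cells. Among their clusters, the cells of the first pair led by Cldn5, Ptprb and Sema3g were the highest, at 47.9 (36.1 to 62.4) CPM.

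The sequences upstream of the start sites of Mmrn1, which among the 8 genes had the largest pooled share in LEC-like cells, and of Reln, which had a second site of expression in Schwann-like cells, are shown to set them side by side. They are the 250 bases before the RefSeq start on GRCm38.p6, 5' to 3' on the strand of the gene, at chr6:60944067-60944316 (plus strand) for Mmrn1 and chr5:22344706-22344955 (minus strand) for Reln, with CG in capitals.
Mmrn1: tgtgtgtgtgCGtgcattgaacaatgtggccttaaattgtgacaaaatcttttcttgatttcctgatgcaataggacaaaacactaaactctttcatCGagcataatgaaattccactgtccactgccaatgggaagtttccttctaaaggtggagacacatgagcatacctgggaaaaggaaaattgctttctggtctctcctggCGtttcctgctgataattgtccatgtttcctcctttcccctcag
Reln: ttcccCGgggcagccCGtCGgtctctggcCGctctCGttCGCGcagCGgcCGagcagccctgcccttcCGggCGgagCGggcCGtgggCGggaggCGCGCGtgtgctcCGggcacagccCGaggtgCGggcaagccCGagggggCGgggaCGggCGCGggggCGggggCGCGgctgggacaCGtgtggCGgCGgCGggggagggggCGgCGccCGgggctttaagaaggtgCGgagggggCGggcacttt
CG, searched as these letters and read the same on both strands, occurred 3 times in the Mmrn1 window, with 42.4% G or C, and 37 times in the Reln window, with 80% G or C. As many CG as in Mmrn1 were held by 71.0% of 32851 windows of the same kind, and as many as in Reln by 2.20%. The median window held 6 CG and 52.4% G or C. RefSeq windows were matched for 5 of the 8 genes, and Prox1 (20 and 11 CG at its start sites), Pdpn (2) and Nts (2) completed them. Lyve1, Foxc2 and Pkhd1l1 had no entry. These counts are a description of sequence, and no expression value was tested against them. Whether transcription in these cells begins at the RefSeq starts was not tested.

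Detection per cell did not follow level alone across genes. Nts, at 333 to 509 CPM, was found in 24.3% to 37.6% of LEC-like cells. Pdpn, at 216 to 258 CPM, was found in 49.1% to 66.4%. A Prox1 UMI was found in 94.2% and 90.5% of LEC-like cells of SAR131675 and control diet, and in 73.0% and 73.4% of those of LNR and sham. For Mmrn1 the 4 values were 93.8%, 93.8%, 92.4% and 90.2%, and for Foxc2 they were 28.8%, 23.8%, 26.5% and 24.9%. In keratinocyte-like cells, taken as a comparison, 0.114% to 0.304% of cells held Prox1, 0.310% to 0.329% held Mmrn1 and 0.147% to 0.240% held Foxc2, although their median depths of 7986.5 to 12609 UMIs were above the 2546 to 4955.5 UMIs of LEC-like cells. For Lyve1 and Pdpn the share of keratinocyte-like cells was 1.55% to 2.02% and 1.09% to 2.05%. Podoplanin is also known from keratinocytes, and whether these UMIs were expression or free RNA was not tested. After each cell was thinned to 1500 UMIs, which left out 20, 23, 43 and 40 LEC-like cells, Prox1 was found in 84.0%, 77.5%, 52.1% and 62.4% of LEC-like cells and Mmrn1 in 88.3%, 89.3%, 85.9% and 94.0%. At that depth Lyve1 was found in 58.3%, 64.2%, 45.8% and 55.6%, and Nts in 24.8%, 17.1%, 23.2% and 28.6%. The median LEC-like cell held 6, 5, 4 and 5 of the 8 genes at its own depth and 4, 4, 3 and 4 when thinned.

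LEC-like cells were not uniform in the 8 genes. In the first pair they formed 2 clusters, a larger cluster of 325 cells led by Ccl21a, Mmrn1, Reln and Prox1 and a smaller cluster of 111 cells led by Prox1, Clca3a1, Cldn5 and Pkhd1l1. Lyve1 was at 3341 against 77.4 CPM (larger against smaller) in SAR131675 and at 3839 against 150.3 CPM in control diet. Mmrn1 was at 3212 against 1150 CPM and 3402 against 1378 CPM, and Reln at 1692 against 475 CPM and 2292 against 632 CPM. The capillary receptor and these secreted proteins thus lay on the side of the larger cluster, together with Ccl21a at 20140 against 3691 CPM over both libraries.

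Foxc2, Pkhd1l1 and Nts lay on the other side. Foxc2 was at 44.2 against 150.4 CPM (larger against smaller) in SAR131675 and at 38.2 against 125 CPM in control diet. Pkhd1l1 was at 426 against 817 CPM and 269 against 743 CPM, and Nts at 358 against 602 CPM and 196 against 669 CPM. The valve gene Cldn11, at 9.04 against 92.9 CPM over both libraries, and the transcription factor gene Foxp2, at 236 against 973 CPM, stood on the same side as Foxc2. Itga9, also listed with valves and collecting vessels, was at 422 against 543 CPM. Its log2 ratio of smaller over larger was 0.36 (0.19 to 0.53), and 0.15 (-0.12 to 0.42) in control diet alone. In the second pair, at the resolution of 1.2, that ratio was 0.03 (-0.30 to 0.36). Prox1 differed least, at 1255 against 1572 CPM, and Pdpn was at 284 against 203 CPM.

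In the second pair, LEC-like cells formed 1 cluster at the resolution of 0.7 and split into 232 and 127 cells only at 1.2. There the sides of 7 genes were as in the first pair in both libraries, with Lyve1 at 2386 against 40.2 CPM in LNR and 2736 against 155 CPM in sham, and Foxc2 at 45.8 against 133 CPM and 64.4 against 139 CPM. The exception was Prox1, at 660 against 578 CPM in LNR and 694 against 822 CPM in sham, with intervals of the log2 ratio that included 0 in both. At 1.2 the LEC-like cells of the first pair again formed a larger and a smaller cluster, with the 8 genes on the same sides. Lyve1 was then at 3517 against 221 CPM in SAR131675 and 3937 against 266 CPM in control diet. Nts was at 274 against 729 CPM and 150 against 726 CPM. Clusters are formed from the cells they describe, so these values are a description with no test. They did not use the 8 genes.

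**Figure D3:**
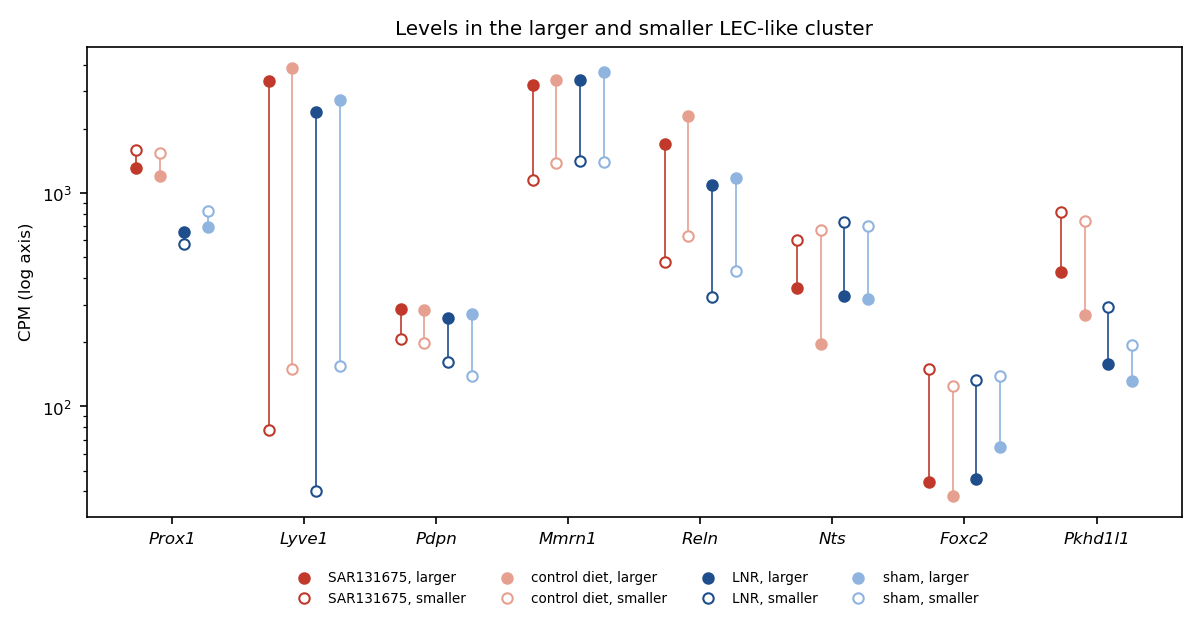
CPM (log axis) of the 8 genes in the larger (filled) and smaller (open) LEC-like cluster of each library, at resolution 0.7 for the first pair and 1.2 for the second. Lyve1, Mmrn1, Reln and Pdpn lie higher in the larger cluster in all 4 libraries, and Nts, Foxc2 and Pkhd1l1 in the smaller.

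Pairs of genes within single LEC-like cells followed these sides in part. At equal depth, Lyve1 and Reln were found together in 99, 112, 50 and 59 cells, which was 1.16, 1.13, 1.42 and 1.21 times the number that the product of their shares gives. Lyve1 and Foxc2 were found together in 7, 7, 6 and 5 cells, 0.751, 0.496, 0.690 and 0.529 times that number. For Lyve1 with Pkhd1l1 the ratios were 0.787, 0.701, 0.853 and 0.599. Pairs of the genes on the side of the smaller cluster varied more. Nts with Pkhd1l1 was at 1.18, 1.17, 0.945 and 0.5 from 28, 16, 9 and 3 cells, Foxc2 with Pkhd1l1 at 1.21, 1.27, 0.547 and 1.49 from 9, 12, 3 and 4 cells, and Nts with Foxc2 at 1.01, 1.59, 1.36 and 1.24 from 4, 6, 6 and 6 cells. Prox1 with Mmrn1 stayed near the product, at 0.981, 1.00, 1.02 and 1.01. Since 85.9% to 94.0% of these cells held Mmrn1, that ratio could depart little from 1. Of the 28 pairs, 8 lay above the product in all 4 libraries and 9 below it. At the cells' own depth, 18 lay above and 2 below.

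**Figure D4:**
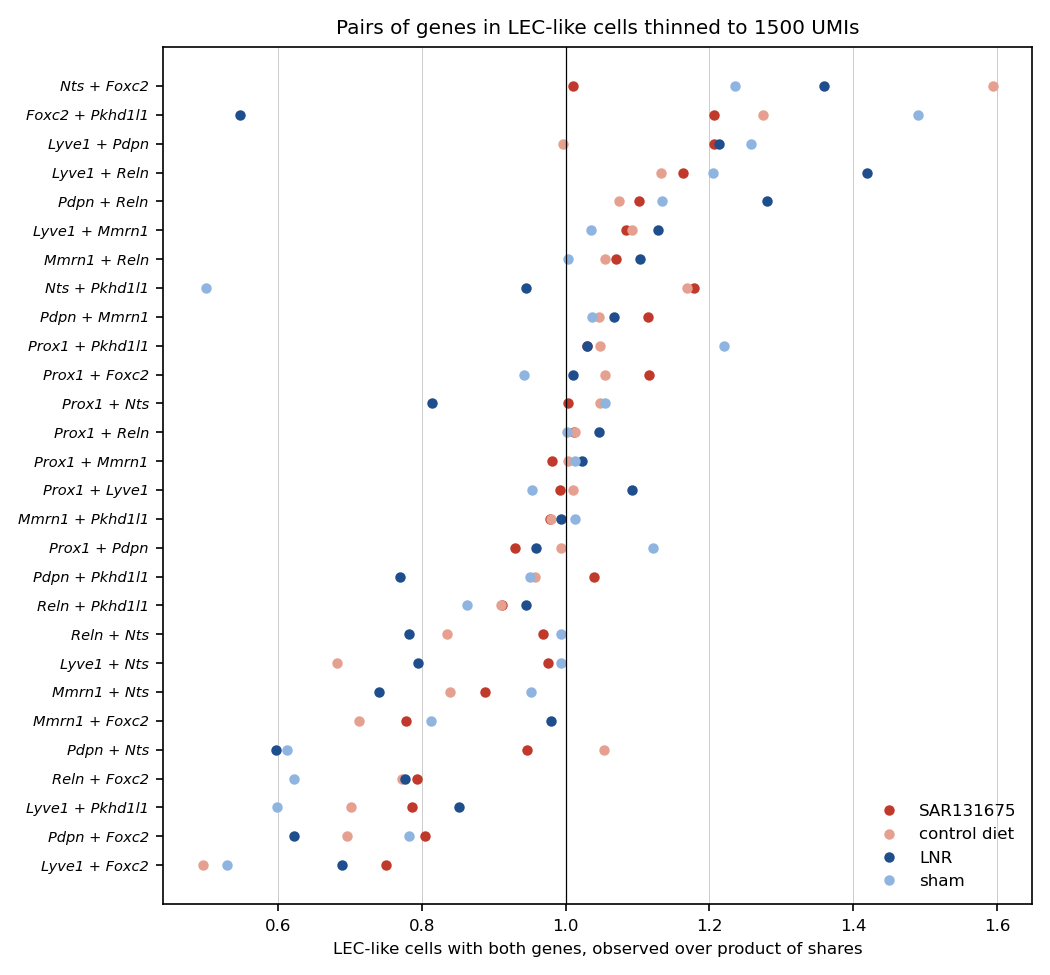
LEC-like cells with both genes of a pair, as a ratio to the number that the product of their shares gives, after thinning to 1500 UMIs, with 1 point per library. Pairs of Lyve1, Pdpn, Mmrn1 and Reln lie to the right of 1 and those of Lyve1 with Foxc2 or Pkhd1l1 to the left in all 4 libraries, except that Lyve1 with Pdpn was just below 1 in control diet.

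The comparison of SAR131675 with control diet asked how VEGFR3 inhibition altered gene expression in the digit. In LEC-like cells, 3 of the 8 genes had an interval of the log2 ratio wholly above 0 and 3 wholly below. Of all 11024 genes with at least 10 UMIs there, 6.46% lay above and 6.13% below, and of the 4901 genes with at least 100 UMIs 8.69% lay above and 9.53% below. Intervals narrow as counts grow. No share was computed for genes with counts as high as those of Lyve1 (3063 UMIs in SAR131675 and 3366 in control diet). Reln, at 1279 against 1811 CPM, had a log2 ratio of -0.50 (-0.59 to -0.41). Lyve1, at 2234 against 2769 CPM, had one of -0.31 (-0.38 to -0.24), and Mmrn1 one of -0.16 (-0.23 to -0.10). On the other side, Pkhd1l1, at 559 against 406 CPM, had a log2 ratio of 0.46 (0.29 to 0.63), Nts, at 440.5 against 333 CPM, one of 0.40 (0.22 to 0.59) and Prox1 one of 0.12 (0.02 to 0.21). Differences were not detectable at this depth for Pdpn, at -0.00 (-0.22 to 0.22), and Foxc2, at 0.34 (-0.09 to 0.78). Among the genes with at least 100 UMIs, the 5th and 95th percentiles of the log2 ratio were -0.46 and 0.44, so Reln and Pkhd1l1 lay just outside this range and the other 6 inside.

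The larger LEC-like cluster made up 72.6% of LEC-like cells in SAR131675 and 76.7% in control diet. Within it, the log2 ratio was -0.44 (-0.54 to -0.34) for Reln, -0.20 (-0.27 to -0.13) for Lyve1, 0.87 (0.60 to 1.15) for Nts and 0.66 (0.43 to 0.91) for Pkhd1l1. Within the smaller cluster, Reln was at -0.41 (-0.69 to -0.14) and Lyve1 at -0.96 (-1.61 to -0.32), while the intervals of Nts, -0.15 (-0.41 to 0.10), and Pkhd1l1, 0.14 (-0.09 to 0.37), included 0. Without upper limits on genes and UMIs, which adds barcodes of high depth, the LEC-like log2 ratio of Nts was -0.06 (-0.20 to 0.07), that of Lyve1 -0.07 (-0.13 to -0.02) and that of Pkhd1l1 0.27 (0.13 to 0.40). With LEC cells defined per barcode by at least 2 of the naming markers, Prox1 turned to -0.33 (-0.42 to -0.24) and Nts to -0.033 (-0.21 to 0.14). Of those barcodes, 4.26% in SAR131675 and 5.22% in control diet lay in LEC-like clusters. These ratios thus describe a set made up mostly of other cells.

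Outside LEC-like cells, Lyve1 in macrophage-like cells had a log2 ratio of -0.31 (-0.35 to -0.27), from 2082 against 2580 CPM, beside -0.31 in LEC-like cells. Lyve1 was low but on the other side of 0 in mural-like cells, at 1.10 (0.62 to 1.60) from 148 against 48 UMIs, and in Schwann-like cells, where 9 of 309 SAR131675 cells held 68 UMIs and 1 of 193 control diet cells held 1. By macrophage-like cluster, Lyve1 was at 2928 against 3638 CPM in the cluster led by Lyve1 and Pf4 and 2281 against 3467 CPM in that led by Vsig4, but 2460 against 2391 CPM in that led by Pf4 and Mrc1. In the clusters led by Ccl8 and Lyz1, Lyve1 was at 1286 against 1767 CPM and 244 against 509.9 CPM. Reln in Schwann-like cells was at -0.21 (-0.36 to -0.07). Pkhd1l1 in mesenchymal-like cells was at 0.89 (0.64 to 1.15), from 9.50 against 5.12 CPM. The Col8a1-led cluster that carried most of it numbered 155 against 66 cells, and its Pkhd1l1 level was 228 against 201 CPM. Mmrn1 and Prox1 in mesenchymal-like cells were low in both libraries, at 1.45 against 6.90 CPM and 2.20 against 4.60 CPM. Ccl21a, a gene of LEC-like cells, was there at 11.6 against 31.0 CPM, and its part in these values was not tested.

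The comparison of LNR with sham asked the same of surgical removal of the draining lymph nodes. In LEC-like cells, 1 of the 8 genes had an interval wholly above 0 and 4 wholly below, against 2.96% and 3.19% of all 9312 genes with at least 10 UMIs there and 4.83% and 4.6% of the 2673 genes with at least 100 UMIs. Here too no share was computed for genes with counts as high as those of Mmrn1 (2242 UMIs in LNR and 2034 in sham). Pkhd1l1, at 216 against 157 CPM, had a log2 ratio of 0.46 (0.12 to 0.80). Lyve1, at 1346 against 1661 CPM, had one of -0.30 (-0.42 to -0.19), Prox1, at 624 against 747 CPM, one of -0.26 (-0.43 to -0.09), Reln one of -0.20 (-0.36 to -0.04) and Mmrn1 one of -0.12 (-0.21 to -0.04). The intervals of Nts, 0.09 (-0.11 to 0.29), Pdpn, 0.01 (-0.30 to 0.32), and Foxc2, -0.17 (-0.65 to 0.32), included 0. The 5th and 95th percentiles over genes with at least 100 UMIs were -0.39 and 0.38, and Pkhd1l1 alone of the 8 lay outside them. With cells called doublets removed, none of the 4 intervals below 0 stayed there, and the ratios were -0.11 for Lyve1 and Prox1, -0.03 for Reln and -0.00 for Mmrn1. With LEC cells defined per barcode by at least 2 of the naming markers, a far wider set of barcodes, all 4 turned above 0, to 0.076 for Prox1, 0.14 for Lyve1, 0.23 for Mmrn1 and 0.17 for Reln.

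**Figure D5:**
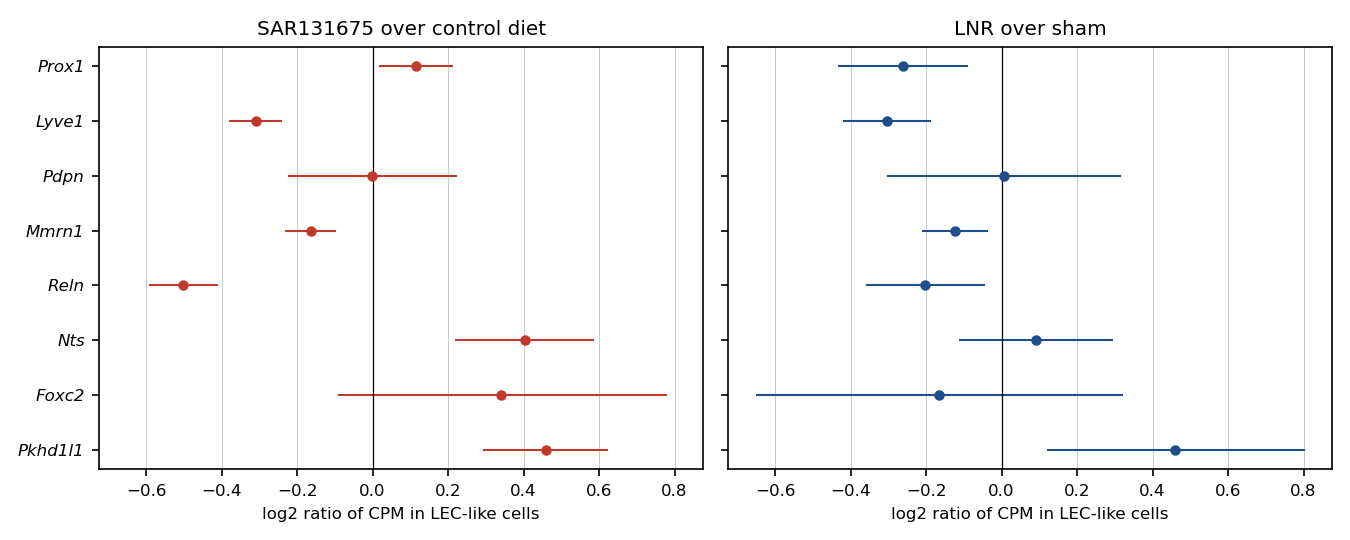
Log2 ratio of CPM in LEC-like cells for SAR131675 over control diet (left) and LNR over sham (right), with exact conditional 95% intervals that cover counting error only. Lyve1, Mmrn1 and Reln lie below 0 and Pkhd1l1 above 0 in both pairs, while Prox1 lies above 0 in the first and below 0 in the second. With called doublets removed, none of the 4 intervals below 0 in the second pair stayed below. Defining LEC cells per barcode by markers gave a set of which 4.26% to 9.28% lay in LEC-like clusters. There those 4 ratios, and those of Prox1 and Nts in the first pair, were among those that changed sign.

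Outside LEC-like cells of the second pair, Lyve1 in macrophage-like cells was at 1796 against 1862 CPM, with a log2 ratio of -0.05 (-0.11 to 0.01). Reln in Schwann-like cells was at 153 against 336 CPM, a log2 ratio of -1.14 (-1.87 to -0.44) from 26 against 54 UMIs. Foxc2 in mural-like cells was at 23.4 against 19.3 CPM, with 0.27 (-0.40 to 0.97), and Pdpn in mesenchymal-like cells at 62.2 against 62.8 CPM, with -0.01 (-0.12 to 0.09).

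Other genes of lymphatic biology were less confined than most of the 8. The 8 genes and the lists compared here were chosen with earlier results of these data known, so this is a description. Of 12 genes of growth factor signaling, only Flt4 had at least 50% of its UMIs in LEC-like cells, at 72.9%, and of the 7 of 8 genes of trafficking and scavenging that had enough UMIs only Ccl21a did, at 82.6%. None of 8 further transcription factor genes, 8 genes of valves and collecting vessels, or 6 genes shared by endothelial cells did so over the 4 libraries together. Cldn11 did so in the second pair, at 57.4%, against 28.0% in the first. The ligands, receptors and related genes of the 8 proteins were likewise absent from that range, for the 8 of 11 genes with 100 UMIs or more in both pairs. Ccl21a, Flt4, Stab2 and Tbx1 in these lists are themselves markers that named the class, so their shares are partly set by the naming. The largest shares were those of Ccl21a, Flt4, the junction gene Cldn5 (46.3%), the valve gene Cldn11 (39.9%) and the endothelial receptor gene Tie1 (25.6%). The smallest were 0 of 174 UMIs for Stab2, which allows a share of up to 1.72%, and 0 of 18 and 0 of 17 for the neurotensin receptor genes Ntsr1 and Ntsr2, which allow up to 16.7% and 17.6%. They were followed by Ccbe1, a cofactor of VEGFC processing, at 0.0115%, and the hyaluronan synthase gene Has2 at 0.0176%. The median share over all genes tested was 0.411%.

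Over 124 clusters of at least 50 cells, the genes whose log2(CPM + 1) most resembled each of the 8 were listed among 16006 genes. Duox2, Mmrn1 and Nts came first for Prox1, with Pearson's r of 0.855, 0.843 and 0.830. Ccl21a, Prox1 and Duox2 came first for Mmrn1 (0.897, 0.843 and 0.816), and Duox2, Prox1 and Mmrn1 for Nts (0.860, 0.830 and 0.789). Reln was nearest to Sh3gl3, Mapt and Duox2 (0.807, 0.669 and 0.653), and Pkhd1l1 to Flt4, Tc2n and Klhl4 (0.7504, 0.714 and 0.710). The 3 shared genes led elsewhere. Lyve1 was nearest to Mrc1, Folr2 and Fcna (0.795, 0.768 and 0.764), genes of tissue macrophages, Pdpn to Gpnmb, Fn1 and Cd302 (0.778, 0.744 and 0.731), and Foxc2 to Nr2f2, Cp and Gng11 (0.721, 0.720 and 0.683). The clusters share libraries, and r is given as a description.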

How the data were processed

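Hindlimb digits labelled P3 were profiled in 4 libraries of 10x Genomics 3' single-cell RNA-seq, each from 10 pooled mice. The authors deposited filtered matrices of raw UMI counts per gene and barcode, not normalized. The submitters' processing notes name Cell Ranger 6.1.2 and GRCm39, whereas the file headers give Cell Ranger 8.0.1 for the SAR131675 and control diet libraries and 6.1.2 for LNR and sham.

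Barcodes with 200 to 5500 genes, at most 30000 UMIs and at most 10% mitochondrial UMIs were kept. Each pair of libraries was clustered together with scanpy 1.11.5 (Python 3.11.15, igraph 0.11.9), from counts scaled to 10000 per cell, with 2000 variable genes, 30 principal components, 20 neighbours and Leiden resolution 0.7, first over all cells and then within endothelial, immune and stromal cells. The 8 genes were left out of the variable genes and of the markers that named clusters. This gave 70 and 62 clusters. Names came from 27 marker lists, needing a score of at least 0.3, a runner-up below 0.75 of it and at least 3 markers found in 5% of cells, and 31 clusters stayed unnamed. This naming rule was set after clusters and values of the 8 genes had been looked at, and a cluster led by immunoglobulin genes was left unnamed by a rule added after it was seen. The 8 genes and all gene lists were chosen with earlier results of these data known.

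UMIs were summed per class and library and scaled to CPM. Intervals were computed with scipy 1.17.1 at 95%, and a count of 0 was given a limit of 3 counts. Beside the 8 genes, those named were the 3 most correlated with each over clusters of at least 50 cells, the 10 with the largest share in LEC-like cells, and the 5 largest and 5 smallest shares in the gene lists. Leading genes of clusters and the subcluster genes Cldn11, Itga9, Foxp2 and Clca3a1 were named after their values were seen. Doublets were left in, and cells called by Scrublet (expected rate 0.8% per 1000 cells) were removed as an alternative. The other alternatives were no upper limits, resolution 1.2, all 4 libraries clustered together, the 8 genes allowed among variable genes, LEC cells defined per barcode by at least 2 of the 8 LEC markers, each library left out, and cells thinned to 1500 UMIs. Only the interval of the log2 ratio was tested on simulated data, with UMIs drawn as independent molecules, which the interval itself assumes. Clustering, naming, shares and co-detection were not tested in this way.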

Additional observations from a re-analysis of the deposited data

Results flagged for a closer look

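UMIs of the 8 genes were also counted in barcodes that had been removed for their genes, UMIs or mitochondrial share, which no comparison above uses. They numbered 15761 in SAR131675, 17026 in control diet, 1361 in LNR and 943 in sham, or 32.7%, 35.0%, 7.31% and 5.53% of all UMIs of the 8 genes in each library. The removed barcodes, 9388, 6801, 1842 and 1870 in number, held 42.0%, 40.7%, 15.2% and 14.4% of the UMIs of all genes, so the share of the 8 genes summed lay below that of all genes in each library. By gene, the share in removed barcodes lay above that of all genes in SAR131675 for Prox1 (45.2%) and Mmrn1 (45.5%), and in control diet for Prox1 (51.6%), Mmrn1 (49.9%), Nts (58.7%) and Pkhd1l1 (42.7%). It lay below for each of the 8 genes in LNR and sham. The median removed barcode with a Prox1 UMI held 31972.5, 32651.5, 29296 and 31972 UMIs. Their part in the values above was measured only by the setting without upper limits. Each condition had 1 library, so samples were not compared within a group, and no difference between the pairs was tested.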

How the results depend on the processing

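No paired analysis was possible because each condition had 1 library. The count of 5 genes with at least 50% of their UMIs in LEC-like cells was 5 under every alternative run, each library left out included. The definition per barcode could hardly lower it, since its barcodes included 97.3% to 99.1% of the LEC-like cells. With 1 library left out, the LEC-like share ranged from 73.9% to 79.7% for Prox1, 17.1% to 19.3% for Lyve1, 7.20% to 7.69% for Pdpn, 79.0% to 84.3% for Mmrn1, 54.6% to 60.8% for Reln, 77.3% to 85.7% for Nts, 22.1% to 22.6% for Foxc2 and 52.5% to 55.8% for Pkhd1l1. Under the other alternatives the ranges were wider, 72.5% to 91.8% for Prox1, 18.2% to 23.7% for Lyve1, 7.44% to 21.4% for Pdpn, 78.0% to 98.3% for Mmrn1, 55.6% to 69.2% for Reln, 77.9% to 94.2% for Nts, 22.4% to 37.8% for Foxc2 and 52.2% to 80.4% for Pkhd1l1. Of all 80 shares, those with a library left out included, 39 lay outside the interval of the reported value. Defining LEC cells per barcode by 2 markers gave 5263, 3949, 1940 and 2042 barcodes, of which 4.26% to 9.28% lay in LEC-like clusters. With it, SAR131675 against control diet had 1 gene above 0 and 5 below, and LNR against sham 6 above and 0 below. The log2 ratio then turned to -0.33 for Prox1 and -0.033 for Nts in the first pair, and to 0.076 for Prox1, 0.14 for Lyve1, 0.23 for Mmrn1 and 0.17 for Reln in the second. Without upper limits, Nts in the first pair turned to -0.065. With called doublets removed (4.67%, 0.907%, 7.41% and 6.97% of cells, against expected 23.3%, 19.2%, 15.9% and 16.5%), 0 genes were below 0 in the second pair. The causes were not tested. Thinning to 1500 UMIs moved the gene pairs above the product in all 4 libraries from 18 to 8 and those below from 2 to 9, and it also left out 20, 23, 43 and 40 LEC-like cells. Of 96 log2 ratios under alternatives, 79 stayed within the interval of the reported value, 10 moved beyond it and 7 turned. Those 7 are of ratios whose interval had lain off 0. Foxc2 and Pdpn, whose intervals included 0, also changed sign in both pairs, with lowest and highest values of -0.029 and 0.46 for Foxc2 and -0.21 and 0.057 for Pdpn in the first pair, and -0.18 and 0.25 for Foxc2 and -0.088 and 0.28 for Pdpn in the second. The widest intervals of the log2 ratio were those of Foxc2 in both pairs, the gene with the fewest UMIs.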
